A study of Homo sapiens with 10 samples.

Results

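The genes described here are the 7 human CDK inhibitor genes: the CIP/KIP genes CDKN1A, CDKN1B and CDKN1C, and the INK4 genes CDKN2A, CDKN2B, CDKN2C and CDKN2D. They were chosen by name from the 19962 protein-coding genes annotated by GENCODE release 44 on chromosomes 1 to 22 and X, and their promoters were defined as 2000 bp upstream to 500 bp downstream of any annotated transcript start. Occupancy of Rb was measured by CUT&RUN, in which a nuclease tethered to the antibody releases the DNA beside the bound protein, in OVCAR-3 and Kuramochi, established cell lines of high-grade serous ovarian cancer that carry no engineered change (genotype label WT). For 2 days each line received INX-315, an inhibitor of CDK2, at 300 nM, or the same volume of DMSO, its solvent. Each of the 4 groups had 2 Rb libraries, and each line had 1 library made with an IgG2a control antibody from DMSO-treated cells. The assay was run once per line with biological replicates, so the p-values below rest on the spread between replicates of a single experiment. In the main fits that spread was pooled over all regions tested. RNA was not measured in these samples, and the identity of the lines was not checked against marker genes.

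CDK inhibitor proteins are brakes on the cell cycle. The INK4 proteins p15, p16, p18 and p19 bind CDK4 and CDK6 and keep them from D-type cyclins, whereas the CIP/KIP proteins p21, p27 and p57 bind assembled cyclin-CDK complexes, those of CDK2 included. By restraining these kinases both families keep Rb in its hypophosphorylated form, which holds E2F transcription factors at promoters. The upstream first exon of CDKN2A encodes a different protein, ARF, which binds and restrains MDM2, and the promoters of several of these genes are known E2F targets.

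Peak lists were available for each library, with 5221 to 8794 peaks in the DMSO libraries and 13031 to 17281 in the INX-315 libraries. Depth, taken as the mean number of fragments over a base, was 0.216 to 0.501 in the 8 Rb libraries. The number of fragments at each summit was recovered from the listed fold enrichment and p-value and divided by that mean, and the result is called the summit height. It is a multiple of the genome-wide mean of the same library. Intervals given for heights are exact 95% Poisson intervals and cover counting error only.

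These promoters held 10 of the 22935 regions bound by Rb, a region being the merged overlapping peaks of the 8 libraries. Each region lay near an annotated start by the rule that defined promoters, and the distance of the summit from it varied. The summit at CDKN1A was 28 bp downstream of the canonical start, that at the CDKN1B start 191 bp upstream, and that at CDKN2B 301 bp downstream. CDKN2D had a median summit 103 bp upstream of its nearest start, but its summits were spread over 690 bp between libraries. The CDKN1C summit lay 1109 bp downstream of its canonical start, and the nearer CDKN2C summit 1805 bp upstream of the canonical start of that gene. CDKN2C, CDKN2A and CDKN1B each had a pair of regions, because their transcripts start at widely spaced sites. The sequences below were read from GRCh38, the build of the peak coordinates, on the strand of each gene and inside windows of 200 bp centred on the median summit, leaving out bases annotated as untranslated exon. They are shown because Rb can reach DNA through E2F factors. Capitals mark the core of the E2F consensus on either strand, which is TTNNCGC with C or G at each N. The consensus itself adds a T before the core, and capitals cover it where it occurs. The CDKN2A stretch is labelled by the ARF first exon, but its summit lay in no annotated CDKN2A exon. The exon annotated there was that of the antisense RNA gene CDKN2B-AS1.
CDKN1A, chr6:36678642-36678709 (+), upstream of the p21 start: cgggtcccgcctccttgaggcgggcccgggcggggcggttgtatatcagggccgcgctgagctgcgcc
CDKN1B, chr12:12717077-12717276 (+), at the p27 start: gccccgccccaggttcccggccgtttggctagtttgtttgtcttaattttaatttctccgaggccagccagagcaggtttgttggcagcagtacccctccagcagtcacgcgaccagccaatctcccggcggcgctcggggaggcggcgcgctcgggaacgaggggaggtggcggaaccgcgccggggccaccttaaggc
CDKN1C, chr11:2884566-2884765 (-), exon and intron after the p57 start: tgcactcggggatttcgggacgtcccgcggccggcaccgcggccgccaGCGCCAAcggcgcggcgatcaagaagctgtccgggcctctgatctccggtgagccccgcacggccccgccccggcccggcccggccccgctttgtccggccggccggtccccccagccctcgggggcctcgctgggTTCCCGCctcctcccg
CDKN2A, chr9:21994647-21994820 (-), at the ARF first exon: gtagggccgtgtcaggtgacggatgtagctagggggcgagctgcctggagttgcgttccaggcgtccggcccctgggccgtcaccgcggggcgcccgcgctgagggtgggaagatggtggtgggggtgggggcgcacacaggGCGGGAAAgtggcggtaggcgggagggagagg
CDKN2D, chr19:10569062-10569261 (-), upstream of the p19 start: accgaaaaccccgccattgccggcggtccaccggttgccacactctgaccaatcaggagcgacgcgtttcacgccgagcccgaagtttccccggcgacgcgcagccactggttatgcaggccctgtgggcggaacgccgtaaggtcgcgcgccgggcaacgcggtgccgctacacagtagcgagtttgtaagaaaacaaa

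Of the 10 windows of 200 bp, 1 held an E2F consensus string on either strand, that of the CDKN2A ARF region, and 2 held the shorter core, the ARF region and CDKN1C. The CDKN1C summits were spread over 1803 bp, and its window held that of OVCAR-3 INX-315 replicate 1 and of no other library. Among the 14482 regions bound in any Rb library at promoters of protein-coding genes, 3.82% of windows of the same length held the consensus and 17.0% the core. Just outside its window, the CDKN2D region held the consensus 123 bp upstream of its median summit, within this stretch of 30 bases.
CDKN2D, chr19:10569270-10569299 (-): aaccagccttcTTTCCCGCctgccgggttc
The CDKN2C region held 4 core strings and no consensus, and those nearest to its summit lay 113 bp upstream and 138 bp downstream of it. They are printed as stretches of 30 bases because the window is untranslated exon.
CDKN2C, chr1:50968312-50968341 (+), upstream of the summit: tcgctgtccgccTTCCCGCagcgtacgctg
CDKN2C, chr1:50968563-50968592 (+), downstream of the summit: ggagagcgggagGCGGGAAtgagggcgcgg
Neither E2F string occurred in the regions at the CDKN1B start, the CDKN2A p16 start or CDKN2B. The other strings counted were the GC box GGGCGG, in 8 of 10 windows against 58.6% of all promoter regions, the CCAAT box CCAAT, in 4 of 10 against 17.7%, and the cell cycle homology region TTTGAA, in 1 of 10 against 3.68%. CpG dinucleotides numbered 17 to 30 per window, against a median of 19 over all promoter regions. These matches describe letters and do not show that a factor was bound.

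Of the 7 genes, 4 had a promoter peak in both replicates under DMSO, and all 7 did under INX-315, with the same counts in each line. Under DMSO the 4 were CDKN1B, CDKN2A, CDKN2C and CDKN2D, which had a peak in all 8 Rb libraries. By family, 1 of 3 CIP/KIP genes and 3 of 4 INK4 genes were bound under DMSO, and 3 of 3 and 4 of 4 under INX-315. Over all protein-coding genes the share bound rose too. It went from 26.8% to 55.5% in OVCAR-3 and from 24.9% to 53.2% in Kuramochi, and 18.8% of genes had a peak in all 8 libraries. Presence or absence in 2 libraries against 2 was not tested. No IgG2a peak lay in any of these promoters, among 257 IgG2a peaks in OVCAR-3 and 195 in Kuramochi.

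**Figure D1:**
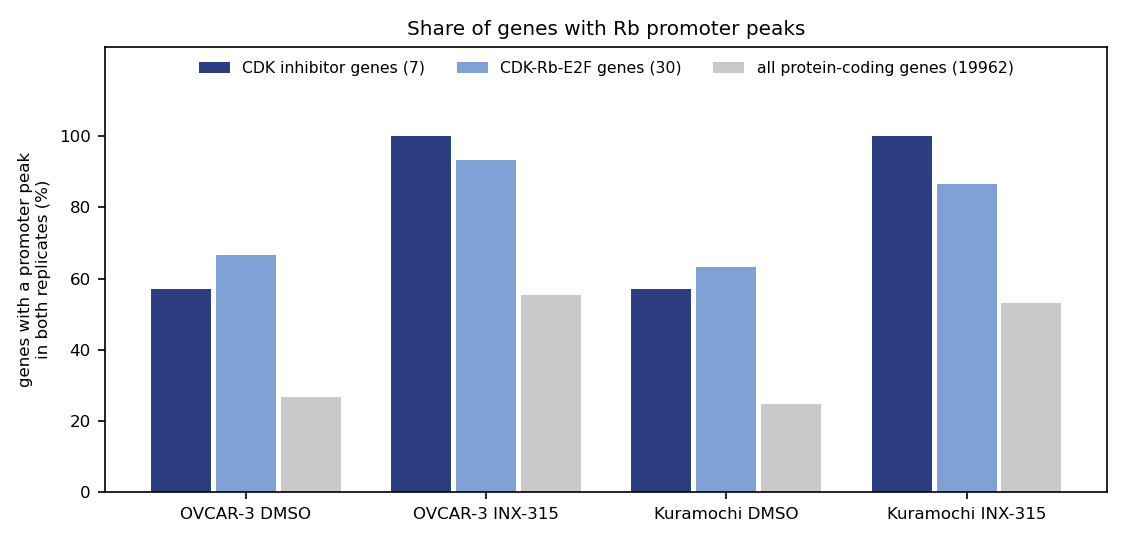
Bars give the percentage of genes with a promoter peak in both replicates of each group, for the 7 CDK inhibitor genes, 30 genes of the CDK-Rb-E2F pathway and all 19962 protein-coding genes. The CDK inhibitor genes went from 57.1% under DMSO to 100% under INX-315 in each line, while all genes went from 26.8% to 55.5% in OVCAR-3 and from 24.9% to 53.2% in Kuramochi.

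The genes that were free of promoter peaks in both DMSO replicates were CDKN1A in OVCAR-3 and CDKN1A, CDKN1C and CDKN2B in Kuramochi. All of them, 1 of 1 and 3 of 3, had a promoter peak in both INX-315 replicates of the line. Among all genes that were free under DMSO, 27.1% gained a peak in this way in OVCAR-3 and 23.5% in Kuramochi. These gains were not kept on lists of equal length. When every list of a line was cut to the length of its shortest, 6162 peaks for OVCAR-3 and 5221 for Kuramochi, 5 genes were bound under INX-315 in OVCAR-3 (without CDKN1A and CDKN1C) and 3 in Kuramochi (CDKN2A, CDKN2C and CDKN2D), against 4 under DMSO in each line. All genes stood at 29.0% and 25.0% under INX-315 on those lists, and at 24.8% and 21.8% under DMSO.

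CDKN1A encodes p21, an inhibitor of cyclin-CDK complexes that is induced by DNA damage. No promoter peak was listed in the 4 DMSO libraries. In the INX-315 libraries its summit height was 52.2 and 57.1 in OVCAR-3 and 29.6 and 50.9 in Kuramochi. The 4 INX-315 values rested on 11 to 24 fragments and ranked between percentiles 34.1 and 59.5 of the peaks of their libraries, near the middle of those lists. A separate peak lay further into the first intron in several libraries and was outside the promoter as defined. Under DMSO it reached 16.2 in OVCAR-3 replicate 1 and 18.0 in Kuramochi replicate 1, with summits 1426 and 2001 bp downstream of the canonical start, and neither DMSO replicate 2 had it. Under INX-315 it reached 22.8 in OVCAR-3 replicate 1 and 54.3 and 50.9 in the Kuramochi replicates. In OVCAR-3 INX-315 replicate 2 a single peak of 2677 bp covered both places. The region held an E2F consensus string in that downstream part, 1912 bp from the promoter summit, and most of the downstream peaks overlapped the promoter of DINOL, a non-coding RNA transcribed beside CDKN1A. Rb was thus called within the gene, though not at the start, in 2 of 4 DMSO libraries.

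CDKN1B encodes p27, an inhibitor of cyclin E-CDK2 that is controlled largely through protein turnover. At its start, OVCAR-3 cells had summit heights of 20.2 and 25.9 with DMSO and of 52.2 and 83.2 with INX-315. In Kuramochi it was 31.6 in DMSO replicate 2, with no peak in replicate 1, and 44.5 and 60.2 under INX-315. The INX-315 values lay above every listed DMSO value of the same line. Within OVCAR-3, the only line with a value in every library, the log2 difference was 1.53 (SE 0.41, adjusted p = 0.00028, limma). A further CDKN1B transcript starts about 21 kb upstream, at the promoter of GPR19, an orphan receptor gene, and this shared region was called in all 8 libraries. The count of CDKN1B as bound in all 8 libraries, and under DMSO in Kuramochi, rested on this shared region. There the OVCAR-3 heights were 16.2 and 21.9 with DMSO and 62.0 and 28.5 with INX-315, and those of Kuramochi were 20.2, 29.0, 44.5 and 83.4 in the same order. INX-315 replicate 2 of OVCAR-3 was the lowest INX-315 value and lay below DMSO replicate 2 of Kuramochi, although the groups did not overlap within either line.

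CDKN1C encodes p57, an imprinted inhibitor that acts mainly in development. Taking the highest region of each gene, its summits were the lowest of the 7 genes in each INX-315 library. OVCAR-3 DMSO replicate 2 had a height of 9.97 from 5 fragments (95% interval 3.24 to 23.3), at percentile 4.35 of its list, and the other 3 DMSO libraries had no peak. Under INX-315 the height was 26.1 and 21.4 in OVCAR-3 and 17.3 and 32.4 in Kuramochi, each from 7 to 9 fragments. The summits were spread over 1803 bp between libraries, so no single summit position marked this promoter.

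Of the CDKN2A and CDKN2B starts on chromosome 9, the ARF start had the highest Rb summit in each of the 8 libraries. The region there, 19890 bp upstream of the canonical p16 start and shared with the promoter of the antisense RNA gene CDKN2B-AS1, was called in every Rb library. Its height reached 97.0 and 83.7 in OVCAR-3 DMSO, 166 and 276 in OVCAR-3 INX-315, 60.7 and 89.5 in Kuramochi DMSO and 156 and 153 in Kuramochi INX-315. All 4 INX-315 values exceeded all 4 DMSO values. In every library the peak stood at percentile 93.0 or higher of its list, under DMSO as under INX-315. The p16 start, from which CDKN2A is transcribed to give the CDK4 and CDK6 inhibitor, had a peak in only 4 libraries. These were OVCAR-3 INX-315 with 26.1 and 42.8, Kuramochi DMSO replicate 2 with 15.8 and Kuramochi INX-315 replicate 2 with 27.8. The count of CDKN2A as bound in all 8 libraries thus came from the ARF region. With canonical starts alone 3 of the 7 genes were bound under DMSO in OVCAR-3, without CDKN2A. In Kuramochi 2 were, without CDKN2A and CDKN1B. All genes stood at 24.3% and 22.6% by canonical starts.

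CDKN2B encodes p15, an INK4 protein induced by TGF-beta, and starts about 34 kb upstream of p16. One DMSO library had a peak there, OVCAR-3 replicate 2, with a height of 17.9 from 9 fragments. Under INX-315 it was 68.5 and 88.0 in OVCAR-3 and 44.5 and 46.3 in Kuramochi. The 4 INX-315 values all lay above the single DMSO value, by 2.48 times at the least. Without OVCAR-3 DMSO replicate 1, 6 of the 7 genes would count as bound under DMSO in OVCAR-3, since replicate 2 held peaks at CDKN2B and CDKN1C. All genes then stood at 37.0%. Of the other genes of the locus, MTAP, a purine salvage enzyme, had a promoter peak in all 8 libraries with heights of 38.2 to 183. For DMRTA1 a height was recovered in 7, all but OVCAR-3 DMSO replicate 1, with values of 10.5 to 147.

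CDKN2C encodes p18, and its region had the highest INX-315 summits among the 7 genes. Near the middle of its 3 annotated starts the height was 58.6 and 73.8 in OVCAR-3 DMSO, 238 and 352 in OVCAR-3 INX-315, 40.4 and 52.7 in Kuramochi DMSO and 200.0 and 213 in Kuramochi INX-315. The treatment groups were far apart in both lines, with the lowest INX-315 value 2.71 times the highest DMSO value. Within its own list the peak ranked at percentiles 59.1 to 95.6 in the DMSO libraries and 95.9 to 99.3 in the INX-315 libraries, whose lists were longer, so these ranks are not compared between treatments. Further upstream, 10152 bp before the canonical start, the promoter of FAF1 overlapped that of CDKN2C and was bound in all 8 libraries. FAF1 encodes a ubiquitin-binding protein read from the opposite strand. The height there was 30.3, 21.9, 81.6 and 171 in OVCAR-3 and 42.7, 44.8, 133 and 181 in Kuramochi, given as both DMSO and then both INX-315 libraries. The region at the CDKN2C start also overlapped the promoter of an annotated gene without a symbol, and exons of both genes covered the summit. Which of the genes sharing a region a peak belongs to cannot be told apart from the peak lists.

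CDKN2D encodes p19, an INK4 protein whose level varies through the cell cycle. Its region was called in every Rb library, with heights of 20.2 and 23.9 in OVCAR-3 DMSO, 62.0 and 97.5 in OVCAR-3 INX-315, 24.7 and 31.6 in Kuramochi DMSO and 84.0 and 64.8 in Kuramochi INX-315. The lowest INX-315 value was above the highest DMSO value. The summit lay downstream of the start, and of the window printed above, in both OVCAR-3 INX-315 libraries and in OVCAR-3 DMSO replicate 1. In the other libraries it lay upstream of the start. The peak of OVCAR-3 DMSO replicate 1 was 216 bp wide. With promoters of 1000 bp upstream to 100 bp downstream CDKN2D was no longer bound under DMSO in OVCAR-3.

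**Figure D2:**
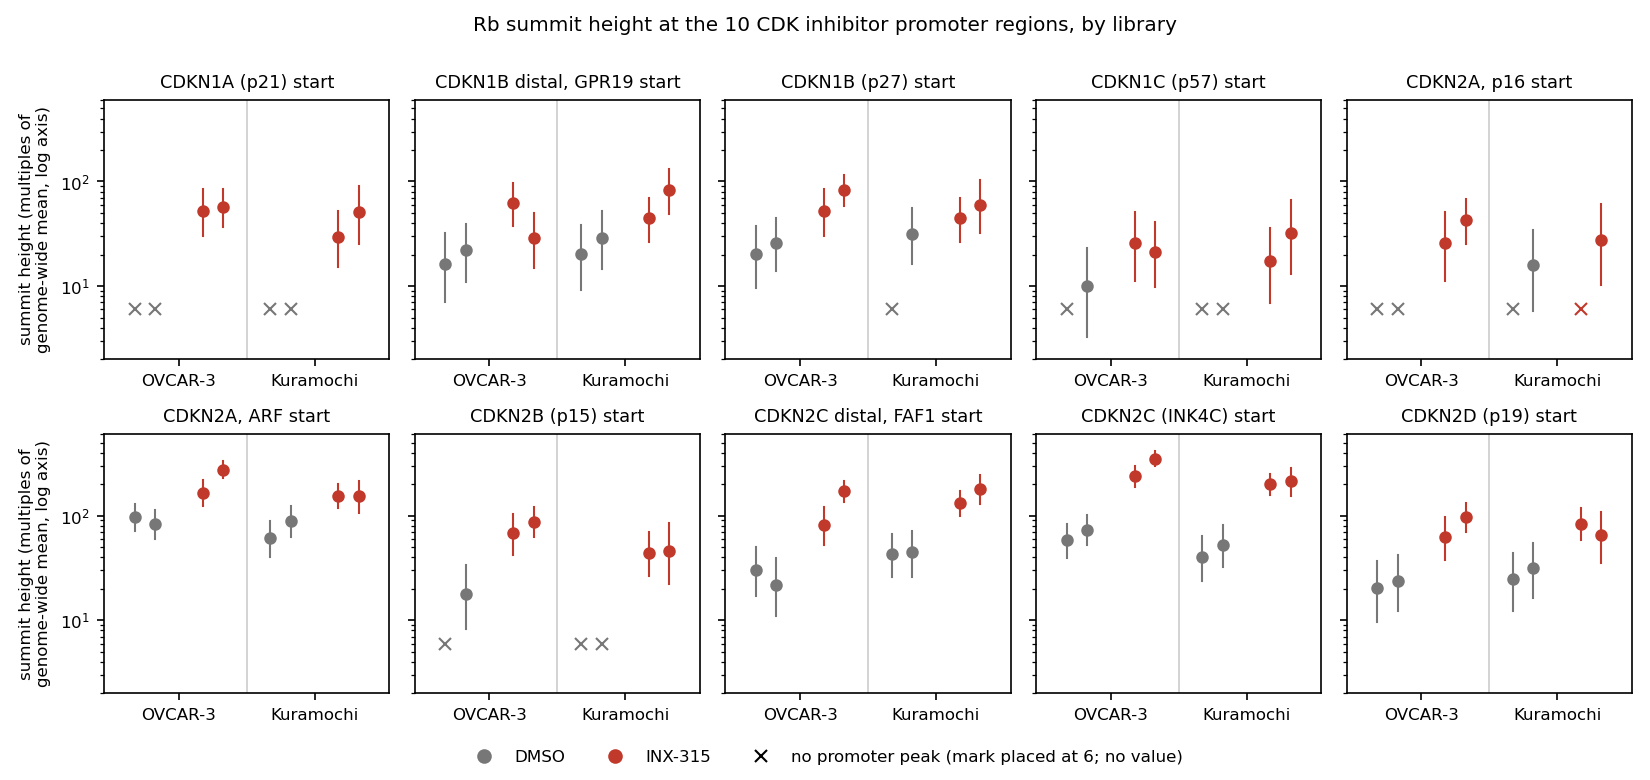
Each point is the summit height in 1 library (log axis, multiples of the genome-wide mean of that library) with its 95% Poisson interval, and a cross stands for a library with no promoter peak and has no value. At every region the INX-315 points of a line sat above its DMSO points where both were called, and CDKN1A had crosses in all 4 DMSO libraries.

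**Figure D3:**
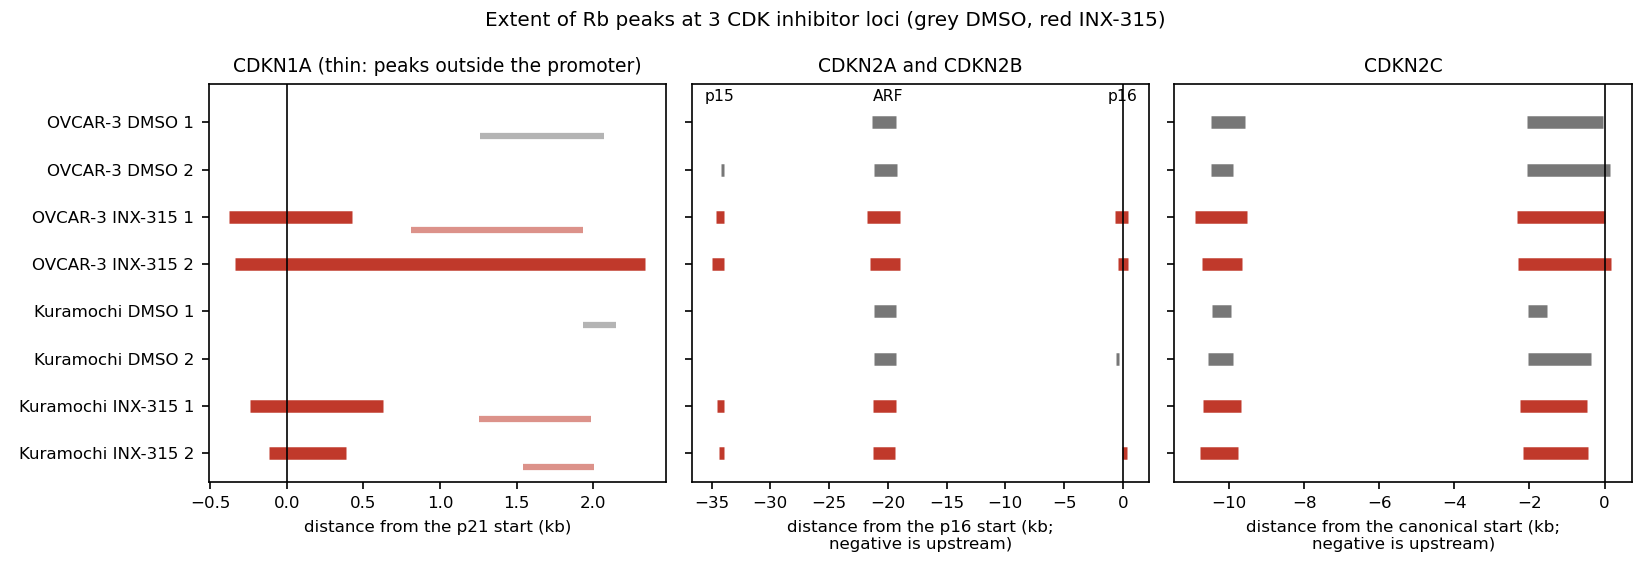
Bars span the Rb peak with the lowest q-value in each region and library, in kb from the canonical start. Grey is DMSO and red is INX-315. At CDKN2A the ARF bar was present in all 8 libraries and the p16 bar in 4, and at CDKN1A the thin bars are peaks outside the promoter, present in 2 DMSO libraries.

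The effect of INX-315 on summit height could be tested where a region was called with a recovered height in every library. This held for 5 regions of these genes among 3181. All 5 were higher under INX-315 by limma over all regions, with line as a covariate. The SE was 0.29 for every region of this fit, so the spread of a region's own replicates did not set its p-value. The log2 difference was 2.15 at the CDKN2C start (SE 0.29, adjusted p = 8.4e-13, 4.44-fold) and 2.01 at the shared FAF1 region (adjusted p = 1.4e-11). At CDKN2D it was 1.61 (adjusted p = 3.4e-08), at the shared GPR19 region 1.24 (adjusted p = 1.6e-05) and at the ARF region 1.16 (adjusted p = 5.9e-05, 2.23-fold). Nearly all regions behaved this way, since 99.4% were called higher and 0% lower, with 0 lower also at an unadjusted p under 0.05. The median log2 difference over all regions was 1.65, a 3.15-fold rise, and that of the 5 regions was 1.61. An exact permutation of treatment labels within lines gave p = 0.0556 (two-sided) for each region, the smallest value its 36 arrangements allow.

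Because the whole distribution had moved, the regions were also compared after subtraction of the median of each library. On that scale 4.18% of all regions were higher under INX-315 and 7.42% lower, and none of the 5 passed. The CDKN2C start was 0.48 above the median on the log2 scale (SE 0.17, adjusted p = 0.076, limma) and the ARF region 0.52 below it (SE 0.17, adjusted p = 0.062, limma). The shared FAF1 region stood at 0.34, CDKN2D at -0.06 and the shared GPR19 region at -0.43, with adjusted p from 0.29 to 0.85. The ARF region was the highest of the 5 in each DMSO library and the smallest in its rise, at percentile 10.7 of all differences, whereas the CDKN2C start was at percentile 92.7. On the deposited fold enrichment, which divides by the local background, the ARF difference was 0.66 (adjusted p = 0.038) and that of the CDKN2C start 2.02 (adjusted p = 6.9e-09).

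**Figure D4:**
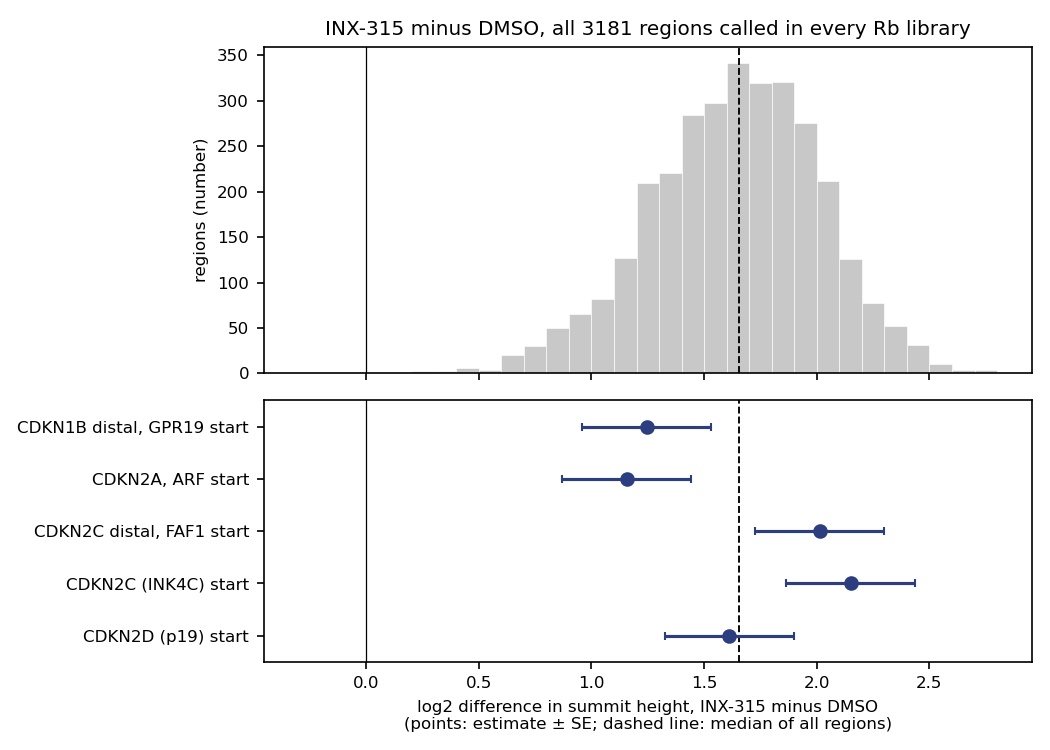
The upper panel counts the 3181 regions called with a recovered height in all 8 Rb libraries. They are counted by their log2 difference in summit height, INX-315 minus DMSO, and the lower panel gives the 5 CDK inhibitor regions with their SE. All 5 points were above 0, and they fell on both sides of the dashed median of 1.65.

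Within OVCAR-3, 6 regions of these genes were tested and all were higher, where 97.3% of 4860 regions were. Differences ran between 1.16 at the shared GPR19 region and 2.196 at the shared FAF1 region (SE 0.41). Within Kuramochi, 5 of 5 were higher, where 90.8% of 4441 regions were, from 1.07 at the ARF region to 2.16 at the CDKN2C start (SE 0.42). On the deposited fold enrichment the ARF region no longer passed in either line (0.66 in each, adjusted p = 0.20 in OVCAR-3 and 0.12 in Kuramochi, limma), nor did the shared GPR19 region in OVCAR-3 (0.78, adjusted p = 0.14, limma). The GPR19 difference also depended on single libraries. It was 0.60 without OVCAR-3 INX-315 replicate 1 (adjusted p = 0.15, limma), 0.94 without OVCAR-3 DMSO replicate 1 (adjusted p = 0.12, limma) and 0.88 without Kuramochi INX-315 replicate 2 (adjusted p = 0.19, limma). The CDKN2C start rose by nearly the same amount in both lines, 2.14 and 2.16. For the difference between the lines in response to INX-315, 0% of regions passed by limma, and 115 of 3181 did at an unadjusted p under 0.05. At the 5 regions that difference was between -0.17 and 0.42 on the log2 scale, each smaller in size than its SE of 0.58, so a difference of that order was not detectable at this depth and replication.

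Between the lines, with treatment as a covariate, 8.17% of regions were higher in OVCAR-3 and 17.1% lower, and none of the 5 passed. The CDKN2C start was 0.50 higher in OVCAR-3 (adjusted p = 0.19, limma) and the shared FAF1 region 0.58 lower (adjusted p = 0.12, limma). On the deposited fold enrichment the CDKN2C start passed, at 1.06 higher in OVCAR-3 (adjusted p = 0.016, limma), and without OVCAR-3 INX-315 replicate 2 the FAF1 region passed, at -0.83 (adjusted p = 0.021, limma). After subtraction of each library's median, which moved the shares to 20.9% higher and 21.8% lower, the CDKN2C start was 0.63 higher in OVCAR-3 (adjusted p = 0.0062, limma) and the ARF region 0.51 higher (adjusted p = 0.023, limma).

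The list of 30 genes of the CDK-Rb-E2F pathway gave the setting. It holds kinases, cyclins, pocket proteins, E2F and DP factors and regulators of these proteins. Under DMSO 20 of 30 were bound in OVCAR-3 and 19 in Kuramochi, and under INX-315 28 and 26. Their promoter regions with a recovered height in all 8 libraries numbered 17. All 17 were higher under INX-315, with a median log2 difference of 1.44, and 5 exceeded the median of all regions, as did 2 of the 5 CDK inhibitor regions. The largest rises were at CCNA2, cyclin A2 (2.45), TFDP2, an E2F partner (2.42), CCND3, cyclin D3 (2.01), and TFDP1 (1.80), with adjusted p of 9.8e-10 or less by limma.

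The pathway genes that were not bound under DMSO in either line included CDK4, CDK6, CCND1, CCND2, CCNA1, RBL2, E2F4, E2F5 and BMI1. Not bound here means a peak in at most 1 replicate, and CDK4 did have a peak in 1 DMSO replicate of each line, with 20.2 in OVCAR-3 replicate 1 and 26.3 in Kuramochi replicate 2. Under DMSO CCND1 also had a peak of 15.8 in Kuramochi replicate 2, and CCNA1 one of 14.0 in OVCAR-3 replicate 2. The list also holds BMI1, a Polycomb protein known to silence the CDKN2A locus. Of those free of DMSO peaks, 5 of 7 gained a promoter peak in OVCAR-3 and 4 of 8 in Kuramochi, against 27.1% and 23.5% of all such genes. CDK6 had none under DMSO and heights of 29.4 and 71.3 in OVCAR-3 and 29.6 and 32.4 in Kuramochi under INX-315. RBL2 and E2F5 had the same pattern of presence, as did CDKN1A. CDK2, the target of INX-315 and of the CIP/KIP proteins, was bound in all 8 libraries, with 26.3 to 50.0 under DMSO and 75.0 to 112 under INX-315.

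For each of the 5 regions, the promoter region with the most similar heights over the 8 libraries was found by the mean absolute difference in log2 height. These were KCMF1 for CDKN2D (0.102), CTNNBIP1 for the CDKN2C start (0.115), NFIB for the ARF region (0.148), ORMDL2 and SARNP, which share a region, for the FAF1 region (0.164), and LRPPRC for the GPR19 region (0.231). Outside promoters, Rb regions within 50 kb of these genes were few. CDKN1C had a region 6972 bp away in 3 INX-315 libraries with heights of 11.9 to 26.1, and the other 3 regions, near CDKN1A, CDKN1C and CDKN2C, were each called in 1 library.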

How the data were processed

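Rb CUT&RUN peak lists of 8 Rb and 2 IgG2a libraries were used. The authors trimmed reads, aligned them to hg38 with Bowtie2 2.3.4.1, kept duplicates and called peaks in each library with MACS2 2.2.7.1 (paired-end, q below 0.05, IgG2a of the line as control; versions per the submitters' processing notes). The deposited lists give a fold enrichment (a ratio to the local background) and −log10 p-values and q-values. A whole number of fragments per summit was recovered from fold and p (tolerance 3e-05) in 98.6% or more of each Rb library's peaks, and the lowest background gave the genome-wide mean. A fold can be given only where a peak was listed, since the lists hold no value elsewhere, and the lowest height listed at the genome-wide background was 9.51 to 13.9 by library.

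Peaks overlapping by 1 bp or more were merged. Log2 heights of regions called in all libraries of a fit were tested with limma 3.58.1 in R 4.3.3, with Benjamini-Hochberg adjustment over all regions (threshold 0.05). Regions with a called peak whose height was not recovered were left out of these fits. The script was tested on simulated data. Promoters came from GENCODE release 44 on GRCh38, the build of the files. Named pathway genes were the 4 with the largest called change in each direction and those not bound under DMSO in either line, of which 1 is not reported here. Members, lists and tests were chosen with earlier results of these data known. Reads were not used, so the study's count-based test was not run.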

Additional observations from a re-analysis of the deposited data

How the results depend on the processing

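Counts of bound genes at canonical starts only were 3 (DMSO) and 7 (INX-315) for OVCAR-3 and for Kuramochi 2 and 6, and with equal numbers of top-ranked peaks 3 in Kuramochi INX-315. At canonical starts the share of all genes was 24.3% and 52.0% in OVCAR-3 and 22.6% and 49.7% in Kuramochi. Leaving out 1 replicate gave 4 to 6 bound genes in OVCAR-3 DMSO, where all genes stood at 30.1% to 37.0%. It made no other change in these counts, and q of at most 0.001 changed none. Leaving out a replicate leaves 1 library in its group, which is then assumed to vary like the others. Leave-one-out counts of regions higher under INX-315 were 3150 to 4009 in both lines together, 4395 to 5390 within OVCAR-3 and from 2182 to 5203 within Kuramochi, the lowest without Kuramochi INX-315 replicate 2, and regions lower in Kuramochi numbered 0 to 8. Between lines they were 152 to 449 higher and 315 to 755 lower.

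After median subtraction 133 regions were higher and 236 lower under INX-315, with 31 and 167 within OVCAR-3, 4 and 45 within Kuramochi, and 666 were higher in OVCAR-3 than in Kuramochi. The member differences then turned negative at several regions, at -0.43 (GPR19 region), -0.52 (ARF region) and -0.062 (CDKN2D) over both lines, at -0.70, -0.61 and -0.040 with -0.34 at the CDKN1B start in OVCAR-3, and at -0.19, -0.46 and -0.12 in Kuramochi. On the deposited fold enrichment 3 regions were lower in Kuramochi, and 155 were higher and 131 lower in OVCAR-3 than in Kuramochi, where the GPR19 region turned to 0.077 and the CDKN2C start passed at 1.06 (adjusted p = 0.016, limma). The cause of these differences was not tested.

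With the replicate number as a block, 3167 regions were higher under INX-315, and 4 passed the test of the difference in response and 416 were higher in OVCAR-3. Replicate numbers did not pair the samples (correlation -0.045 in OVCAR-3, -0.012 in Kuramochi). The difference in response at the ARF region was -0.081 after median subtraction and -7.5e-05 on the fold enrichment, and leaving out a replicate gave -0.73 to 0.39 at the GPR19 region, -0.18 to 0.55 at the ARF region, -0.17 to 0.90 at the FAF1 region and -0.30 to 0.26 at the CDKN2C start, none past the threshold. Within a line, calls were lost without 1 replicate at the GPR19 and ARF regions in both lines and at CDKN2D in Kuramochi. There the ARF difference ranged from 0.78 to 1.35 and CDKN2D from 1.21 to 1.59, and the GPR19 difference from 0.60 to 1.72 in OVCAR-3 and from 0.88 to 1.78 in Kuramochi. Heights of 5 to 12 fragments limit the precision of most DMSO values.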
